A study of Homo sapiens with 9 samples.

Results

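Hepatocytes clear drugs, hormones and bile products in successive steps, and the genes of these steps were followed here in Hep3B cells, a human hepatocellular carcinoma line. The genes were taken by name: every listed gene whose symbol starts with CYP2, CYP3, CYP4, UGT1A, UGT2, SULT or GST, without symbols ending in the P of most pseudogenes (GSTP1 was kept) or in the AS of antisense genes, and without 2 genes that are not reported. The annotation still lists CYP2D7 and GSTT2, both tested, as polymorphic pseudogenes. The rule gave 93 of 60683 listed genes, of which 43 were CYP, 18 UGT, 13 SULT and 19 GST genes. Counts summed to 10 or more over all libraries for 62 of the 93, and these 62 were among the 22672 genes tested. The other 31 members stayed under that limit, and 15 of them had no count in any library. The 62 tested members comprised 31 CYP, 9 UGT, 9 SULT and 13 GST genes. Since the prefixes also catch other CYP families, such as CYP26 and CYP27, 32 of the 43 CYP genes belong to families 2, 3 and 4 proper and 11 do not.

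Cytochrome P450 enzymes (CYP) oxidise their substrates with electrons passed on by a reductase. Families 2, 3 and 4 act mainly on drugs, other foreign compounds and fatty acids, whereas the CYP26 and CYP27 families act on vitamin A, vitamin D and sterols. UDP-glucuronosyltransferases (UGT), sulfotransferases (SULT) and glutathione S-transferases (GST) then attach glucuronic acid, sulfate or glutathione, which makes the products soluble and ready for export. In liver most of these genes are held at a high level by hepatocyte transcription factors and nuclear receptors, and liver tumour lines are known to keep part of that expression.

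Cells of this 1 line were kept for 24 hours in vehicle at 20% O2, in vehicle at 1% O2, or in 32-134D, a small-molecule inhibitor of hypoxia-inducible factors (HIF), at 1% O2, with 3 biological replicates in each group. The compound at 20% O2 was not analysed here. Total counts ran from 6013980 to 40549699 per library, and the smallest was vehicle at 20% O2 replicate 2. The members took 0.102% to 0.11% of all counts at 20% O2, 0.0693% to 0.0708% in vehicle at 1% O2 and 0.0788% to 0.0934% with 32-134D. Levels are given as CPM, counts scaled to a common library size by the trimmed mean of M values (TMM), or, for comparison between genes, as TPM. TPM are also divided by the merged length of all annotated exons of a gene, which can exceed the length of its transcripts. A gene was called when the edgeR quasi-likelihood test gave a Benjamini-Hochberg false discovery rate (FDR) below 0.05 and a fold change above 1.5. All 5 HIF target genes set as a check (CA9, EPO, ANGPTL4, NDRG1 and VEGFA) were called higher at 1% O2 and called lower with 32-134D. Of the 8 hepatocyte markers ALB, at 9283 ± 348 CPM (SD, n = 3) at 20% O2, and 5 others were not called at 1% O2, whereas APOB was 11.1-fold and AFP 1.61-fold lower. With 32-134D APOB was 8.68-fold higher and TTR and FGB were called lower (-0.92 and -0.98 on the log2 scale). In 32-134D replicates 1, 2 and 3 TTR had 37.9, 34.5 and 9.79 CPM and FGB 33.5, 33.1 and 6.86 CPM, so replicate 3 was far the lowest. The part of the hepatocyte markers in the member values was not tested. The 8 markers of other cell types summed to 16.0 to 41.9 CPM and VWF was at 0. In such bulk samples fewer cells of a type and less RNA per cell cannot be told apart. The library 32-134D replicate 3 stood apart from the other 2 of its group, as described for the members it touches.

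Most members that changed at 1% O2 were lower. Of the 62 tested members, 31 (50%) were called lower and 4 (6.45%) higher in vehicle at 1% O2 against vehicle at 20% O2, where 20.3% of all tested genes were called lower and 19.5% higher. In either direction 35 members were called (56.5%), against 39.7% of all tested genes, and the libraries of the 2 groups did not overlap for 42 members, against 60.5% of all tested genes. The median log2 fold change of the members was -0.99, against 0.00 over all tested genes. All 4 classes were represented among the lower members, with 13 of 31 CYP, 5 of 9 UGT, 6 of 9 SULT and 7 of 13 GST genes. The 4 called higher were CYP2S1, CYP26A1, SULT1C4 and GSTZ1.

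With 32-134D at 1% O2 most called members were higher than in vehicle at 1% O2. Here 20 members (32.3%) were called higher and 3 (4.84%) lower, where 16.2% of all tested genes were called higher and 13.7% lower. In either direction 23 members were called (37.1%), against 29.9% of all tested genes, and the 2 groups did not overlap for 25 members, against 56.1% of all tested genes. The median log2 fold change of the members was 0.63, against -0.01 over all tested genes. The higher members were 8 CYP, 4 UGT, 6 SULT and 2 GST genes, and the lower ones were CYP2S1, SULT1C4 and GSTZ1. Both comparisons use the vehicle libraries at 1% O2, so their values are set side by side below and were not treated as independent. Among the 20 members of CYP families 2, 3 and 4 the counts were 9 lower and 1 higher at 1% O2, then 6 higher and 1 lower with 32-134D. Among the 11 of other CYP families they were 4 lower and 1 higher, then 2 higher and 0 lower. Without vehicle at 1% O2 replicate 1, the deepest library, 15 members in place of 20 were called higher with 32-134D, and after thinning all libraries to the smallest one 14 were.

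**Figure D1:**
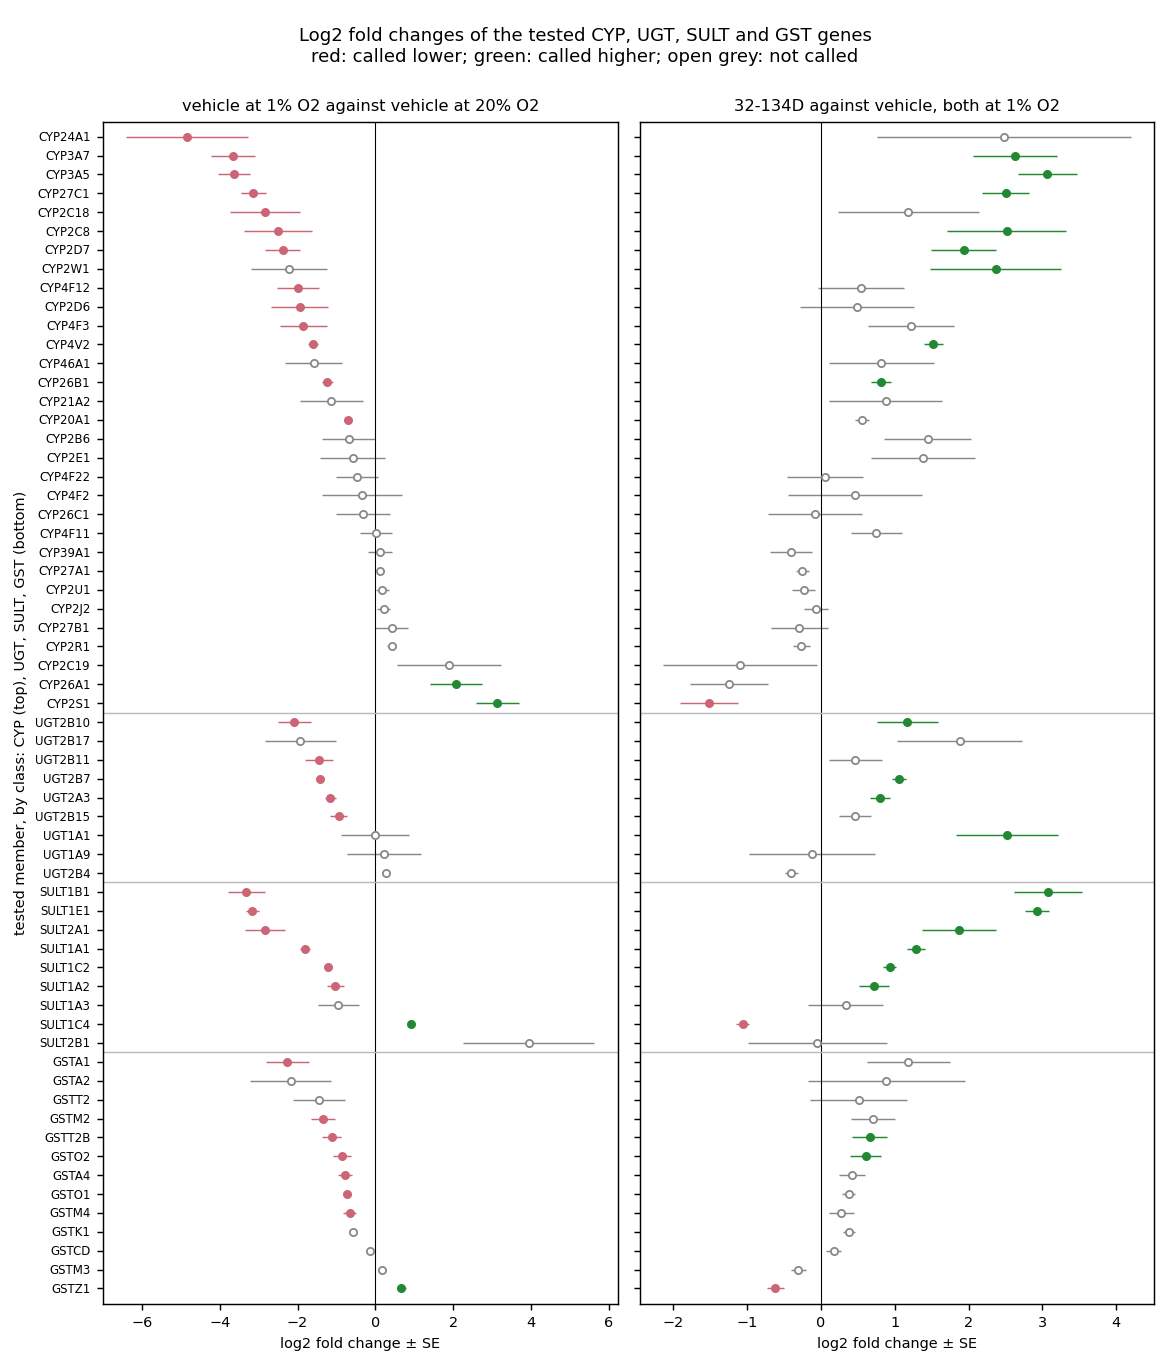
Log2 fold changes with their standard errors (horizontal axes) for the 62 tested members (vertical axis, grouped by class), in vehicle at 1% against 20% O2 (left) and in 32-134D against vehicle at 1% O2 (right). Filled points are called members, 31 lower and 4 higher on the left, 3 lower and 20 higher on the right, and members with wide bars have few counts.

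The sequence upstream of each gene was read next, because HIF binds DNA through the core letters ACGTG or GCGTG. RefSeq promoter windows (GRCh38.p14, 300 bases, 250 before and 50 after a gene's start) were found for 49 of the 62 members. One or both cores, on either strand, were present in 48.4% of 35116 windows over all genes, ACGTG in 21.4% and GCGTG in 36.5%. Counted in the same way, 21 of the 57 windows of members (36.8%) held a core. Counted by gene, 18 of the 49 members with a window held a core in at least 1 of their windows. These were 2 of the 4 called higher at 1% O2, 6 of the 23 called lower that had a window, and members not called. The windows of the 4 members called higher at 1% O2 follow, then those of CYP3A5 and SULT1E1, which were among the most reduced. UGT1A1 comes last, and the size of its rise with the compound, though not its call, depended on 1 library. Capitals mark a core, and no capitals mean only that these letters were not in the window.
CYP2S1: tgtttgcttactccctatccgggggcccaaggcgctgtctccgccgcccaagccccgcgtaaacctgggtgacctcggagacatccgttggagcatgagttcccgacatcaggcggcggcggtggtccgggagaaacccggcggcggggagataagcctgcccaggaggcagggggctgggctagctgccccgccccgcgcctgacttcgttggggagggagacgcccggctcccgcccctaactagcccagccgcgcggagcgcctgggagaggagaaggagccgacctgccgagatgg
CYP26A1: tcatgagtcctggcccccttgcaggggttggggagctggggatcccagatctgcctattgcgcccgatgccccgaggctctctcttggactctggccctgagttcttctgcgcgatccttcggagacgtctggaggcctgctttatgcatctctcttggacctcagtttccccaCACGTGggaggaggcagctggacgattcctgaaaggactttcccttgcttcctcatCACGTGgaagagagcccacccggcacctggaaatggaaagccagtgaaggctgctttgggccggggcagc
SULT1C4: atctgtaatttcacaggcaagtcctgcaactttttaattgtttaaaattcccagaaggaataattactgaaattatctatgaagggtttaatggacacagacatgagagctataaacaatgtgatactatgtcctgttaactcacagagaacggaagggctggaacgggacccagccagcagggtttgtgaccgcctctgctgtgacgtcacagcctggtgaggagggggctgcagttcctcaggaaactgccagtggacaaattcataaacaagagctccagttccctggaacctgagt
GSTZ1: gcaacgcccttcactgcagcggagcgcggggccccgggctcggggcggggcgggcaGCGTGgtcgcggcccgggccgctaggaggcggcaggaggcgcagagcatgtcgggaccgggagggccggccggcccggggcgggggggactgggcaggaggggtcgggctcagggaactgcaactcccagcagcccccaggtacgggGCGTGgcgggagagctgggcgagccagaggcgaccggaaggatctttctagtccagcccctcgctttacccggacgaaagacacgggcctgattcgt
CYP3A5: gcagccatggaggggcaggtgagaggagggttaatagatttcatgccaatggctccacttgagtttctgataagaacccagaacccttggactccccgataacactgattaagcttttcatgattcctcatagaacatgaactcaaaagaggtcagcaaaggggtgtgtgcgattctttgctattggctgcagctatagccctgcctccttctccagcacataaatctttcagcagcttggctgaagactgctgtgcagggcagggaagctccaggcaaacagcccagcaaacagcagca
SULT1E1: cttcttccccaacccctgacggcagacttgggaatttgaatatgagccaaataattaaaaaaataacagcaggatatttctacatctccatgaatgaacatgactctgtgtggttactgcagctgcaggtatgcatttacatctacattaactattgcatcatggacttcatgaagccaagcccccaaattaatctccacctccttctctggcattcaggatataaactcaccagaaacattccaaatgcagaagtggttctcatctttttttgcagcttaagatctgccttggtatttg
UGT1A1: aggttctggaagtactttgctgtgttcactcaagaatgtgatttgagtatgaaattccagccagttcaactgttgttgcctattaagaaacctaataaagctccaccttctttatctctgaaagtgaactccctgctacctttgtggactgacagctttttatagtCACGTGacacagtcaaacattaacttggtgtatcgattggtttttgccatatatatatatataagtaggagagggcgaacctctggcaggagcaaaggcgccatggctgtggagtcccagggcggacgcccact
The windows lie at chr19:41192969-41193268 (plus strand), chr10:93073225-93073524 (plus), chr2:108377704-108378003 (plus), chr14:77320786-77321085 (plus), chr7:99679947-99680246 (minus), chr4:69860096-69860395 (minus) and chr2:233760020-233760319 (plus). CYP26A1 held CACGTG, which reads ACGTG on both strands, in 2 places and UGT1A1 in 1 place, whereas GSTZ1 held GCGTG in 2 places. The windows of CYP2S1, SULT1C4, CYP3A5 and SULT1E1 held neither core.

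Per exon length a few members carried each class. At 20% O2 the UGT members summed to 425 ± 18.7 TPM (SD, n = 3), the GST members to 382 ± 27.3 TPM, the CYP members to 243 ± 10.8 TPM and the SULT members to 183 ± 7.62 TPM. In vehicle at 1% O2 the sums were 302 ± 0.503 TPM for UGT, 222 ± 4.97 TPM for GST, 155 ± 8.51 TPM for CYP and 119 ± 5.09 TPM for SULT. With 32-134D they were 359.7 ± 42.7, 306 ± 21.0, 211 ± 13.1 and 144 ± 23.6 TPM in the same order. In every class each library of vehicle at 1% O2 lay below each library at 20% O2, although for SULT the lowest 32-134D library (118 TPM) fell within the range of vehicle at 1% O2 (113 to 123 TPM).

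The share that the leading member took of the summed TPM of its class members differed between the groups. Such shares depend on the exon lengths used, which were 8399 bases for SULT1C2 and 2898 bases for SULT1C4. At 20% O2 SULT1C2 had 54.3 CPM and 25.0 TPM, and SULT1C4 had 44.1 CPM and 58.9 TPM. UGT2B4, which glucuronidates bile acids, had 230.3 ± 7.54 TPM at 20% O2 and 232 ± 4.39 TPM in vehicle at 1% O2. Its share of the TPM of the UGT members went from 54.2% ± 0.699 to 76.7% ± 1.41, and it was 58.1% ± 1.35 with 32-134D. SULT1C4 made up 32.2% ± 1.12 of the TPM of the SULT members at 20% O2, 78.0% ± 0.966 in vehicle at 1% O2 and 36.9% ± 3.02 with 32-134D. The estrogen sulfotransferase SULT1E1 went the other way, from 23.0% ± 3.76 to 3.34% ± 0.438 and, with 32-134D, 25.0% ± 2.81. CYP27A1, the mitochondrial sterol hydroxylase of bile acid synthesis, led the CYP members with 31.9% ± 0.979, 45.3% ± 1.06 and 33.2% ± 1.35 of their TPM in the 3 groups. GSTO1, an omega-class transferase, led the GST genes with 57.1% ± 1.58, 49.0% ± 1.65 and 54.8% ± 0.921.

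**Figure D2:**
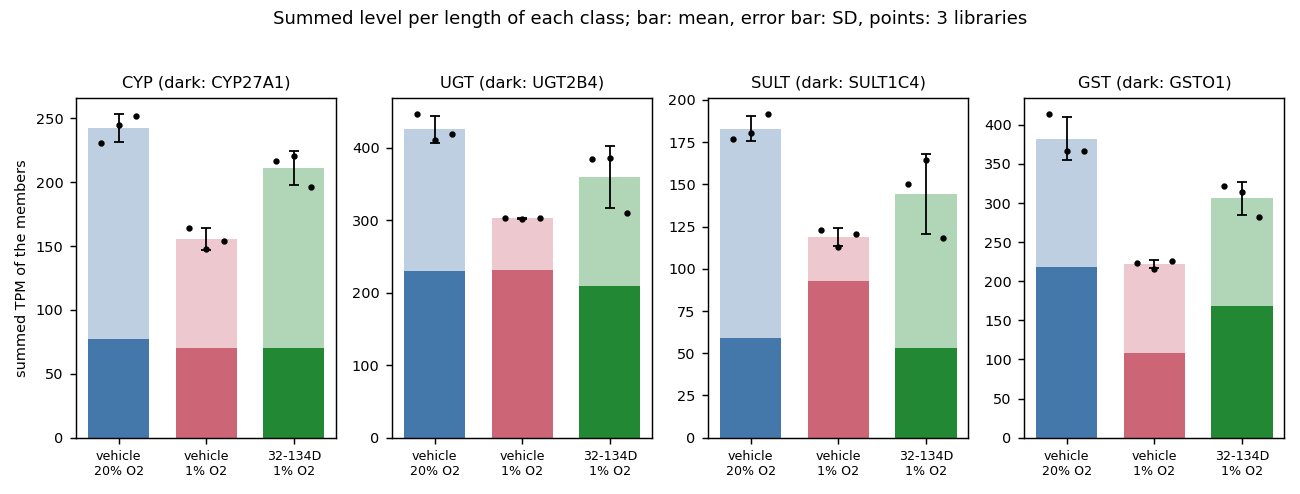
Summed TPM of the members of each class (vertical axes) in the 3 groups (horizontal axes), with bars for means, error bars for SD and points for the 3 libraries. The dark part is the leading member, and SULT1C4 fills 32.2% of the bar at 20% O2 and 78.0% in vehicle at 1% O2.

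Among CYP genes with high counts, CYP4V2, a fatty acid hydroxylase, was measured at 34, 42.4 and 41.7 CPM at 20% O2, at 12.2, 13 and 13.4 CPM in vehicle at 1% O2 and at 33.5, 33.1 and 44.8 CPM with 32-134D. The vehicle libraries at 1% O2 were all well under the others and overlapped neither group. It was 3.05-fold lower at 1% O2 (log2 fold change -1.61 ± 0.13 SE, FDR 6.76e-08) and 2.88-fold higher with 32-134D (1.52 ± 0.13, FDR 2.23e-07). Part of its exons overlap KLKB1 on the same strand. CYP26B1, which clears retinoic acid, had 67.6, 78.3 and 81.5 CPM at 20% O2, 34, 30.6 and 32.2 CPM in vehicle at 1% O2 and 65.2, 62.6 and 41.7 CPM with 32-134D. Its 3 groups did not overlap, with 32-134D replicate 3 the lowest of its own, and it was 2.35-fold lower in hypoxia (FDR 2.40e-06) and 1.75-fold higher with the compound (FDR 1.69e-04). CYP26A1, which also clears retinoic acid, was higher at 1% O2 at 2.07 on the log2 scale (FDR 0.0159), from 2, 1 and 4 counts at 20% O2 and 21, 14 and 15 in vehicle at 1% O2, and this call was lost without vehicle at 20% O2 replicate 3 (FDR 0.104) or after thinning. Its 32-134D libraries held 6, 2 and 12 counts, and the log2 difference from vehicle at 1% O2 was -1.24 ± 0.52 (FDR 0.0647).

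CYP27C1, an enzyme of vitamin A metabolism, fell 8.78-fold at 1% O2, from 3.87, 5.5 and 4.32 CPM to 0.689, 0.33 and 0.415 CPM (FDR 1.06e-06). With 32-134D it was measured at 3.63, 3.1 and 1.74 CPM, which was 5.67-fold above vehicle at 1% O2 (FDR 1.39e-05), and neither pair of groups overlapped. CYP20A1, an orphan P450, fell 1.62-fold at 1% O2 (FDR 2.17e-05), and its rise of 0.55 on the log2 scale with 32-134D stayed under the fold threshold (FDR 2.04e-04). CYP27A1 itself was at 59.7 ± 2.19 CPM, 65.6 ± 0.477 CPM and 55.1 ± 6.26 CPM in the 3 groups and was not called in either comparison. Also not called were CYP2R1, a vitamin D hydroxylase, at 17 ± 2.7 CPM, 23.2 ± 1.96 CPM and 19.4 ± 1.76 CPM, and CYP2J2, an arachidonic acid epoxygenase, at 8.6 ± 2.62 CPM, 9.47 ± 0.335 CPM and 9.07 ± 1.04 CPM.

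The drug-oxidising CYP3A and CYP2C genes were present at low levels. CYP3A5, a main drug-oxidising form in adults, held 1.72, 1.26 and 2.04 CPM at 20% O2, 0.0795, 0.189 and 0.173 CPM in vehicle at 1% O2 and 1.56, 1.01 and 0.96 CPM with 32-134D. Each vehicle library at 1% O2 lay far below all 6 others, with a 12.4-fold difference at 1% O2 (FDR 1.94e-06) and an 8.39-fold rise with 32-134D (FDR 1.62e-05). CYP3A7, the fetal liver form, had 3.01, 2.04 and 3.01 CPM, then 0.239, 0.283 and 0.138 CPM, then 1.87, 1.82 and 0.229 CPM. The 32-134D replicate 3 stood within the range of vehicle at 1% O2, so these groups overlapped, although the gene was called in both comparisons (log2 fold change -3.66 ± 0.56, FDR 5.21e-05, and 2.63 ± 0.57, FDR 0.00143). CYP3A5 and CYP3A7 are near-copies whose reads the counting could split, and CYP3A7 shares exons with a readthrough gene. CYP3A4, the main adult liver form, gave 6 counts over the 9 libraries and was not tested.

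CYP2C8, which oxidises drugs and fatty acids, was called lower at 1% O2 and higher with 32-134D, on 0 to 8 counts per library. Its call at 1% O2 was lost with DESeq2, with a replicate block or without vehicle at 20% O2 replicate 1 or 3 or vehicle at 1% O2 replicate 1 or 2 (FDR up to 0.122), and its call with 32-134D without vehicle at 1% O2 replicate 1 or 2 (FDR up to 0.0706). CYP2C18 was called lower at 1% O2, but not without vehicle at 20% O2 replicate 2 (FDR 0.0532), and CYP2C19 was not called in either comparison. CYP2D6, which oxidises many drugs, and its near-copy CYP2D7 were both called lower at 1% O2, at -1.94 and -2.38 on the log2 scale, and reads between the pair are uncertain. For CYP2D6 the call was lost without vehicle at 20% O2 replicate 2 or 3 or vehicle at 1% O2 replicate 1 or 3 (FDR up to 0.113) and after thinning, whereas the CYP2D7 call held whichever library was left out. CYP2B6, which oxidises drugs, was not called in either comparison and had at most 0.677 ± 0.562 CPM in a group, and CYP2E1, which oxidises ethanol, was not called either, at 0.256 ± 0.105 CPM. No tested CYP4F gene was called with 32-134D, and 2 of 5, CYP4F3 and CYP4F12, were called lower at 1% O2. The CYP4F3 call was lost without vehicle at 20% O2 replicate 3 or vehicle at 1% O2 replicate 2 or 3 (FDR up to 0.0744), and the CYP4F12 call without vehicle at 20% O2 replicate 3 (FDR 0.0586) or after thinning. CYP24A1, which inactivates vitamin D, was called lower at 1% O2 on 1, 0 and 7 counts against 0 in all 3 libraries, too few for a fold. The CYP24A1 call was lost with DESeq2, with a replicate block and without vehicle at 1% O2 replicate 1 (FDR 0.0534). Without vehicle at 20% O2 replicate 1 or 3 its counts fell under the limit for testing.

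CYP2S1, a P450 of epithelial tissues, was the CYP member with the largest rise at 1% O2. It had 2, 0 and 6 counts at 20% O2, 68, 24 and 29 in vehicle at 1% O2 and 9, 13 and 17 with 32-134D, or 0.143, 0 and 0.182 CPM, 1.8, 1.13 and 1 CPM and 0.255, 0.438 and 0.777 CPM. The vehicle libraries at 1% O2 were above all others, with a log2 fold change of 3.14 ± 0.55 at 1% O2 (FDR 1.82e-04) and of -1.52 ± 0.39 with 32-134D (FDR 0.00524). Leaving out vehicle at 1% O2 replicate 1 ended the call with 32-134D (log2 fold change -1.18, FDR 0.0518), and so did thinning.

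**Figure D3:**
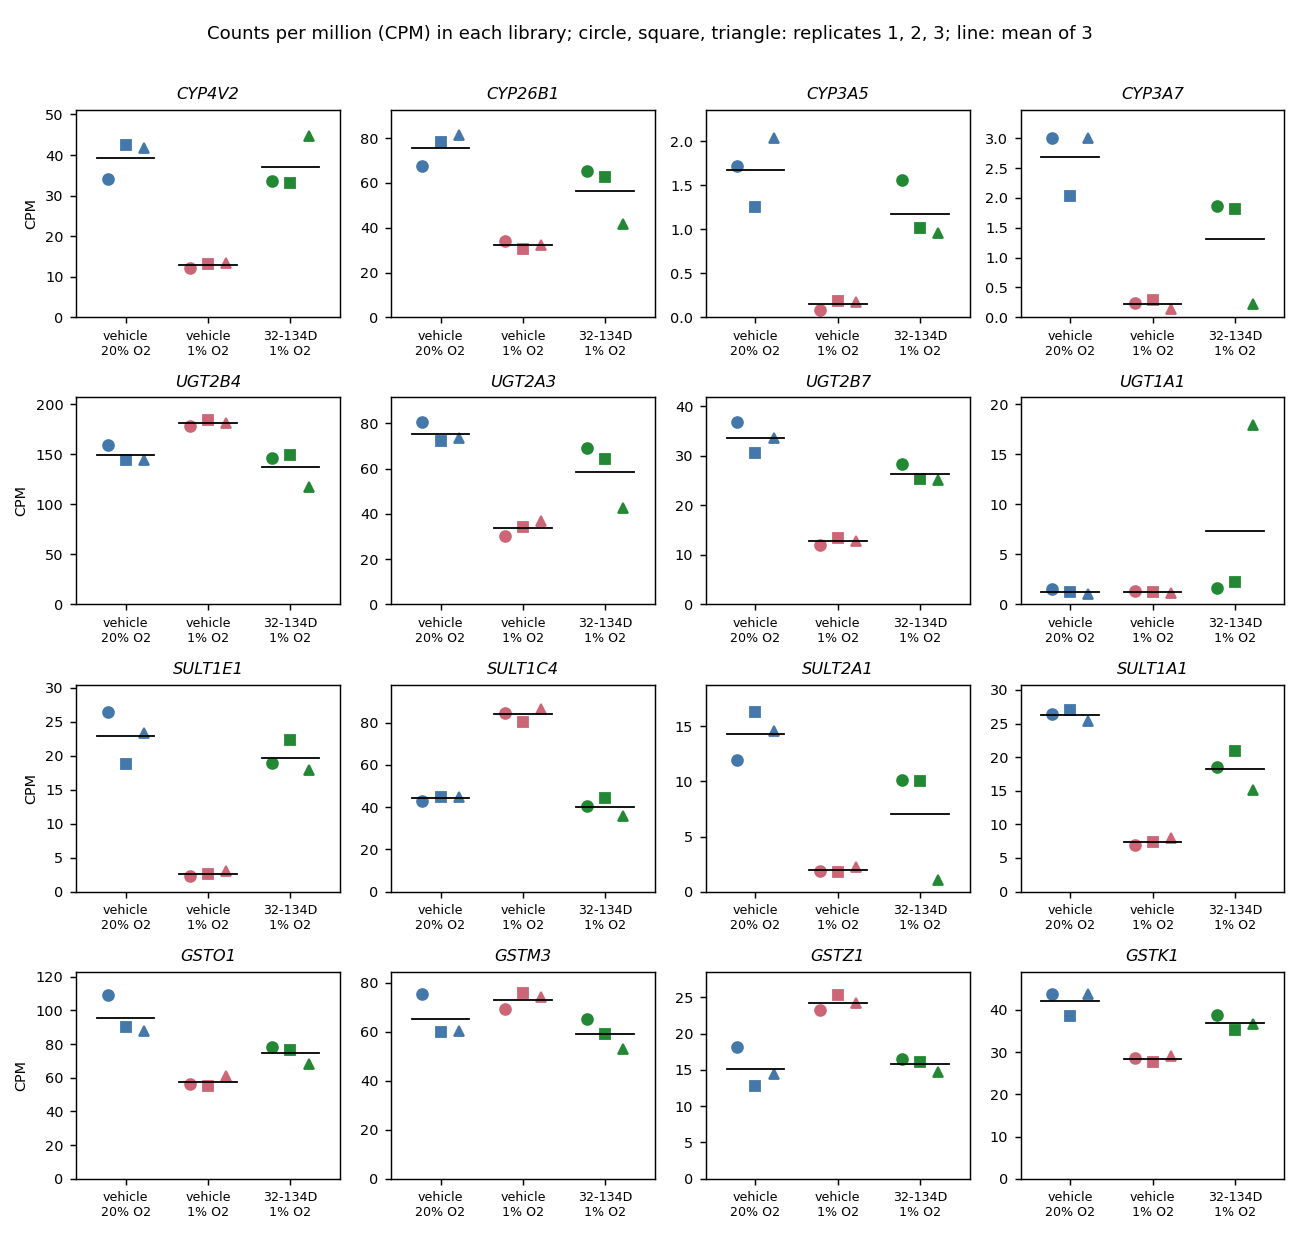
CPM (vertical axes, each from 0) of 16 members in the 9 libraries (horizontal axes, by group), with circles, squares and triangles for replicates 1, 2 and 3 and lines for means. CYP4V2, UGT2B7, SULT1E1 and SULT1A1 are lowest in vehicle at 1% O2, SULT1C4 and GSTZ1 highest there, and the triangle of 32-134D lies far off in CYP3A7, SULT2A1 and UGT1A1.

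The UGT members were led by UGT2B4 at 159, 145 and 145 CPM at 20% O2, 179, 185 and 181 CPM in vehicle at 1% O2 and 146, 149.7 and 117 CPM with 32-134D. Vehicle at 1% O2 was the highest group without overlap, but the differences of 0.28 ± 0.09 (FDR 0.0152) and -0.40 ± 0.09 (FDR 0.00159) on the log2 scale were under the fold threshold. UGT2A3 had 80.6, 72.1 and 73.3 CPM, then 30.3, 34.2 and 36.8 CPM, then 69.1, 64.3 and 42.7 CPM. Its vehicle libraries at 1% O2 were below all others, at 2.24-fold under 20% O2 (FDR 6.10e-06) and with a 1.74-fold rise in 32-134D (FDR 2.43e-04). UGT2B7, which conjugates morphine and many other drugs, fell 2.67-fold at 1% O2, from 36.7, 30.6 and 33.6 CPM to 12, 13.4 and 12.7 CPM (FDR 1.89e-08). It was 2.08-fold higher with 32-134D, at 28.4, 25.4 and 25.1 CPM (FDR 6.43e-07), and none of these groups overlapped.

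UGT2B15, which acts on androgens, fell 1.92-fold at 1% O2 (FDR 0.00233) and was not called with 32-134D (log2 fold change 0.46 ± 0.22, FDR 0.0973), where its libraries were at 16.4, 14.5 and 7.54 CPM. UGT2B10, which conjugates amines such as nicotine, fell 4.23-fold (FDR 6.27e-04) and was 2.25-fold higher with 32-134D (FDR 0.0302), with overlapping groups in the latter comparison. The UGT2B10 call with 32-134D was lost without vehicle at 1% O2 replicate 2 or 3 or 32-134D replicate 2 (FDR up to 0.164) and after thinning. UGT2B11 was called lower at 1% O2 (-1.45 ± 0.36, FDR 0.00304), and the difference with 32-134D was 0.47 ± 0.36 (FDR 0.308). The UGT2B genes are close in sequence, so reads shared among them are uncertain.

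The UGT2 genes and a pair of SULT1 genes lie side by side on chromosome 4, where 9 tested members spanned chr4:68537184-69860152 (GENCODE 29, GRCh38), or 1322969 bases. Of the 9 genes 7 were called lower at 1% O2, where 50% of all tested members and 20.3% of all tested genes were. UGT2B17, with 0 to 11 counts per library, had the same signs (-1.93 and 1.88) but was not called, and UGT2B4 had the opposite signs. UGT2B4 lies between UGT2B11 and SULT1B1, both of which were called lower. With 32-134D 5 of the 9 were called higher, where 32.3% of all tested members and 16.2% of all tested genes were. SULT1B1 and SULT1E1 at one end of the cluster had the largest log2 fold changes of the 9 in both comparisons.

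**Figure D4:**
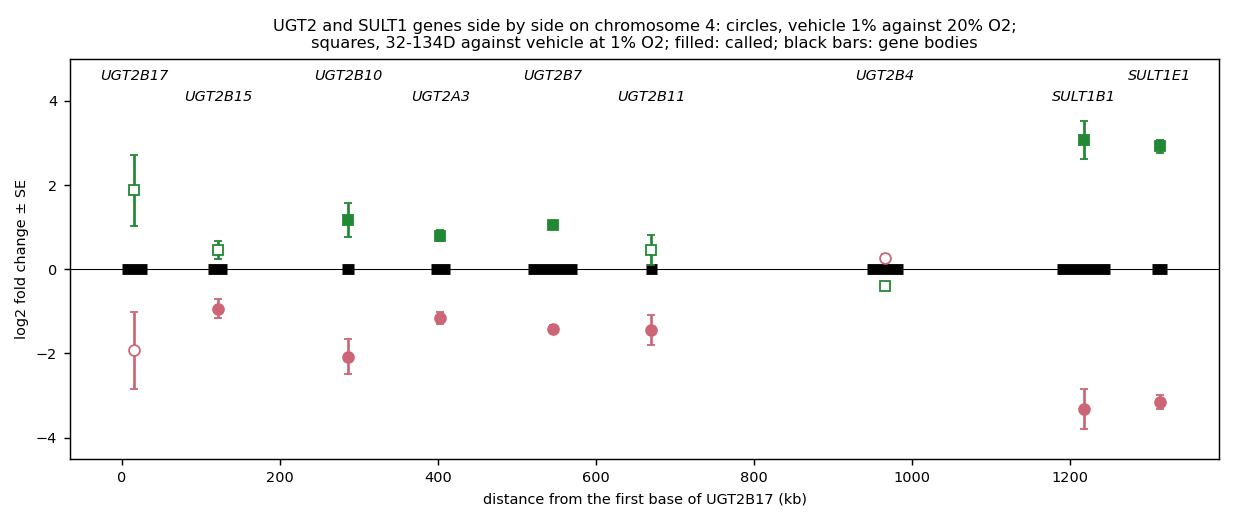
Log2 fold changes with standard errors (vertical axis) of the 9 tested members on chromosome 4 against distance from the first base of UGT2B17 in kb (horizontal axis), with circles for vehicle at 1% against 20% O2, squares for 32-134D against vehicle at 1% O2 and filled symbols for called members. UGT2B4, at 0.28 and -0.40, is the 1 gene with its circle above and its square below 0.

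UGT1A1, the enzyme that conjugates bilirubin, followed another pattern. Its levels were 1.51, 1.26 and 1.06 CPM at 20% O2 and 1.3, 1.27 and 1.11 CPM in vehicle at 1% O2, with no detectable difference (log2 fold change -0.01 ± 0.88, FDR 0.995). With 32-134D it was at 1.67, 2.29 and 18 CPM, so that replicate 3 alone was far above the rest while the other 2 libraries were just above vehicle. All libraries share 1 fit, so replicate 3 also enters the SE at 1% O2, which is not the spread of the vehicle libraries alone. The log2 fold change against vehicle at 1% O2 was 2.52 ± 0.69 (FDR 0.00726) with replicate 3 and 0.68 (FDR 0.0177) without it. The call thus held without replicate 3, at a smaller size. All UGT1A genes share their downstream exons, so only reads over its own first exon point to UGT1A1, and of the 8 UGT1A members just UGT1A1 and UGT1A9 had 10 counts or more.

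Among the SULT genes SULT1E1, which inactivates estrogens, had 26.5, 18.7 and 23.4 CPM at 20% O2, 2.23, 2.55 and 3.01 CPM in vehicle at 1% O2 and 18.8, 22.2 and 17.8 CPM with 32-134D. The vehicle libraries at 1% O2 were all at 3.01 CPM or less and no other library was under 17.8 CPM. SULT1E1 was 8.95-fold lower at 1% O2 (log2 fold change -3.16 ± 0.16, FDR 7.38e-10) and 7.6-fold higher with 32-134D (2.93 ± 0.16, FDR 4.39e-09). Its neighbour SULT1B1, which sulfates thyroid hormones, fell 9.95-fold and rose 8.43-fold (FDR 2.69e-05 and 5.47e-05), on 1 to 4 counts per library in vehicle at 1% O2. The SULT1B1 call with 32-134D was lost after thinning.

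SULT1A1, the main phenol sulfotransferase of liver, had 26.4, 27 and 25.4 CPM at 20% O2, 6.97, 7.35 and 7.98 CPM in vehicle at 1% O2 and 18.5, 20.9 and 15 CPM with 32-134D. The 3 groups did not overlap, in the order 20% O2, 32-134D and vehicle at 1% O2, and the folds were 3.52 lower (FDR 1.57e-08) and 2.45 higher (FDR 8.20e-07). SULT1A2 was called in the same directions, at 2.04-fold and 1.65-fold, the latter not without vehicle at 1% O2 replicate 1 (FDR 0.052) or after thinning, and reads between SULT1A1, SULT1A2 and SULT1A3 are uncertain because these genes are near-copies. SULT1C2 had 47.7, 58.6 and 56.7 CPM, then 24, 23.7 and 21.9 CPM, then 46.2, 44.5 and 42.2 CPM. Its vehicle libraries at 1% O2 were under all others, 2.34-fold lower than at 20% O2 (FDR 3.50e-08) and 1.91-fold lower than with 32-134D (FDR 9.26e-07).

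SULT1C4, which lies beside SULT1C2 on chromosome 2 (chr2:108377911-108388057 and chr2:108288639-108309915), moved in the opposite direction. It was measured at 42.7, 44.7 and 44.9 CPM at 20% O2, at 84.8, 80.4 and 86.7 CPM in vehicle at 1% O2 and at 40.6, 44.5 and 35.7 CPM with 32-134D. Every vehicle library at 1% O2 was at 80.4 CPM or more and every other library at 44.9 CPM or less. The rise at 1% O2 was 1.9-fold (log2 fold change 0.93 ± 0.09, FDR 3.34e-07) and the fall with 32-134D was 2.08-fold (-1.06 ± 0.08, FDR 1.61e-07). SULT1C4 also had the highest level per length among SULT genes, at 58.9 ± 3.03 TPM at 20% O2 and 92.8 ± 5.03 TPM in vehicle at 1% O2. SULT2A1, which sulfates steroids and bile acids, had 12, 16.3 and 14.6 CPM at 20% O2, 1.88, 1.79 and 2.25 CPM in vehicle at 1% O2 and 10.1, 10.1 and 1.01 CPM with 32-134D. The 32-134D replicate 3 lay below vehicle at 1% O2. SULT2A1 was called lower at 1% O2 (-2.84 ± 0.51, FDR 2.33e-04) and higher with 32-134D (1.87 ± 0.50, FDR 0.00645), and the latter was 2.35 (FDR 1.14e-13) without replicate 3.

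The GST genes were led by GSTO1, which had 109, 90.4 and 87.6 CPM at 20% O2, 56.3, 54.9 and 61.2 CPM in vehicle at 1% O2 and 78.5, 76.7 and 68.5 CPM with 32-134D. The 3 groups were apart, with vehicle at 1% O2 the lowest, and GSTO1 was 1.67-fold lower at 1% O2 (FDR 7.95e-06), whereas its rise of 0.38 ± 0.09 with 32-134D was under the fold threshold (FDR 0.00331). GSTO2, its neighbour and homologue, fell 1.81-fold (FDR 0.00429) and rose 1.52-fold (FDR 0.0281). That rise lost its call without vehicle at 1% O2 replicate 1 or 3 or 32-134D replicate 1 or 2 (FDR up to 0.116), with a replicate block and after thinning. GSTA4, which conjugates aldehydes from lipid peroxidation, fell 1.73-fold at 1% O2 (FDR 0.00165) and was not called with 32-134D (0.43 ± 0.17, FDR 0.0576). GSTT2B, a theta-class gene with a near-copy in GSTT2, fell 2.17-fold and rose 1.58-fold (FDR 0.00127 and 0.0317). Its call with 32-134D was lost without vehicle at 1% O2 replicate 1 or 2 or 32-134D replicate 1 (FDR up to 0.13) and after thinning. GSTK1, the kappa-class enzyme of mitochondria and peroxisomes, had 42.1 ± 2.97 CPM, 28.4 ± 0.774 CPM and 36.9 ± 1.84 CPM, and its difference at 1% O2 (-0.57 ± 0.08, FDR 3.04e-05) was just under the fold threshold.

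GSTM3, the most counted mu-class gene, had 65.2 ± 8.76 CPM, 73 ± 3.38 CPM and 59 ± 6.23 CPM and was not called in either comparison, while GSTM2 and GSTM4 were called lower at 1% O2 (-1.34 and -0.66 on the log2 scale), GSTM4 not without vehicle at 1% O2 replicate 1 (-0.56). Exons of GSTM2 and GSTM4 overlap on the same strand, so reads between this pair are uncertain. GSTA1, the alpha-class enzyme of adult hepatocytes, was called lower at 1% O2 as well (-2.27 ± 0.55, FDR 0.00282), on 3 to 10 counts per library in vehicle at 1% O2. The GSTA1 call was lost after thinning. GSTZ1, the isomerase of tyrosine breakdown, was the GST gene called higher, at 18.2, 12.7 and 14.5 CPM at 20% O2, 23.2, 25.3 and 24.2 CPM in vehicle at 1% O2 and 16.5, 16 and 14.8 CPM with 32-134D. The vehicle libraries at 1% O2 were above all others, but the folds of 1.58 (FDR 2.30e-04) and 1.53 (FDR 3.73e-04) were close to the threshold. Its call at 1% O2 was lost without vehicle at 20% O2 replicate 2, with scaling to total counts and after thinning. Its call with 32-134D was lost without vehicle at 1% O2 replicate 2 or 3, 32-134D replicate 3 or vehicle at 20% O2 replicate 1, and also with DESeq2, with both other scalings, with a stricter filter, with 2 groups in the fit and after thinning, in each case because the fold passed below 1.5. Its exons overlap those of POMT2 on the other strand, and the strand setting of the counting is not given in the sources used here. GSTP1 and GSTM1 gave 9 counts and 1 count over all libraries and were not tested.

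Against vehicle at 20% O2, the 32-134D libraries at 1% O2 gave 0 called members in either direction by edgeR, where 3.52% of all tested genes were called, 3.0% higher and 0.516% lower. DESeq2 called 1, UGT1A1, higher. The libraries of these groups did not overlap for 18 members, against 29.8% of all tested genes. At an unadjusted p below 0.05 there were 20 members, and the FDR was below 0.05 for 3, all lower by less than 1.5-fold: GSTO1 (-0.36 ± 0.09, FDR 0.0228), SULT1A1 (-0.52 ± 0.12, FDR 0.0118) and UGT2B7 (-0.36 ± 0.10, FDR 0.0276). The median log2 fold change of the 62 members was -0.29, against -0.00 over all tested genes. For SULT1E1 the difference was -0.23 ± 0.14 (95% interval -0.53 to 0.06) and for CYP4V2 -0.08 ± 0.12 (-0.35 to 0.18). The interval was wide for members with few counts or a deviating library, such as CYP3A7 (-1.96 to -0.10) and UGT1A1 (0.87 to 4.15). A missed threshold does not show that the members were at the same level in both groups.

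The members differed within the 32-134D group through replicate 3. Among the 34 members with a mean of at least 1 CPM in that group, 6 were over 2-fold away from the mean of the other 2 libraries in replicate 3, against 1 in replicate 1 and 1 in replicate 2. SULT2A1 was 10.0-fold lower in it, CYP3A7 8.07-fold, UGT2B10 2.29-fold and UGT2B15 2.05-fold lower, whereas UGT1A1 was 9.07-fold and CYP4F11 2.17-fold higher. Of members under 1 CPM on average, CYP4F3 and CYP4F22 were 13.1-fold and 8.51-fold lower in it. Others under 1 CPM were higher in it, such as CYP26A1 (4.62-fold) and CYP2B6 (3.76-fold). Over all genes of that level 4.40% were over 2-fold away in this library, against at most 1.47% in any other library. The 3 genes outside these families, CYP1A1, CYP1B1 and AHRR, which the aryl hydrocarbon receptor is known to induce, were 9.37-fold, 5.76-fold and 9.80-fold higher in it, and these were picked after their values were seen. All 3 were also called higher in the full set with 32-134D, by log2 2.24 to 8.19 against vehicle at 1% O2. Against vehicle at 20% O2 they were higher by 2.19 to 6.05. CYP1A1 had 104 and 128 CPM in 32-134D replicates 1 and 2 and 1086 CPM in replicate 3. The part of these 3 genes in the member values was not tested. Without this library 26 members were called higher with 32-134D, with all 20 of the full set among them.

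**Figure D5:**
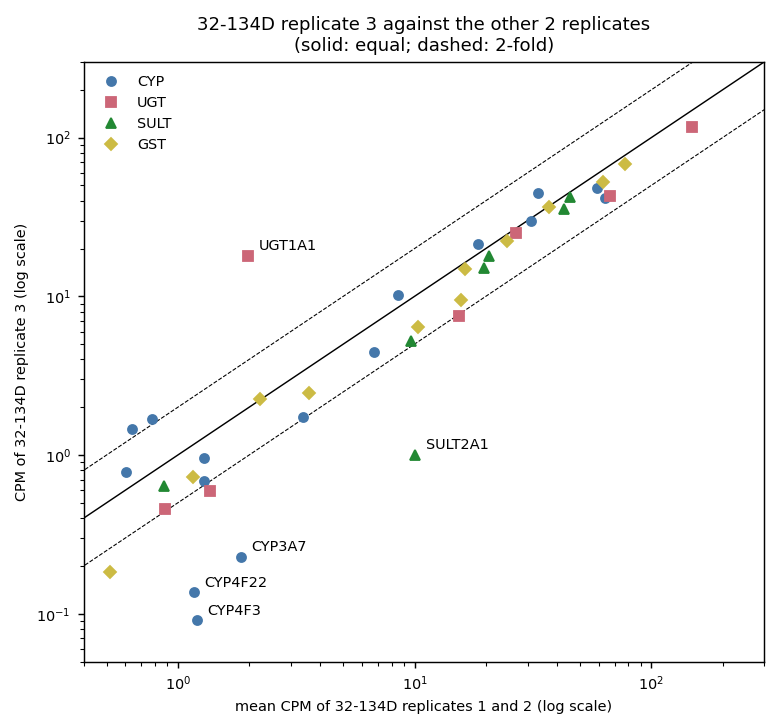
CPM of 32-134D replicate 3 (vertical log axis) against the mean of replicates 1 and 2 (horizontal log axis) for members with a mean of at least 0.5 CPM, with a solid line for equal levels and dashed lines at 2-fold. SULT2A1, CYP3A7, CYP4F3 and CYP4F22 lie farthest below the lower dashed line and UGT1A1 farthest above the upper one, while most members lie between the lines.

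Genes that serve these enzymes were read from separate lists. Of 20 genes that supply electrons or cofactors, 5 (25%) were called higher and 1 (5%) lower at 1% O2, where 19.5% and 20.3% of all tested genes were, then 0 higher and 5 (25%) lower with 32-134D, where 16.2% and 13.7% were. UGDH, which makes the UDP-glucuronic acid that UGT enzymes use, was at 118 ± 4.95 CPM, 523 ± 24.3 CPM and 235 ± 48 CPM in the 3 groups (2.15 ± 0.12, FDR 1.26e-09, and -1.16 ± 0.11, FDR 8.65e-07). GCLC and GCLM, the subunits of the first enzyme of glutathione synthesis, were 1.98 and 1.74 higher on the log2 scale at 1% O2, and with UGDH they were the 3 of this list called higher with 32-134D than at 20% O2. PGRMC1 and SLC35B3 were called higher at 1% O2 and CYB5A, an electron donor of P450 enzymes, lower (-0.68). POR, the P450 reductase, was not called (0.35 and -0.30), nor were PAPSS1 and PAPSS2 at 1% O2, which make the sulfate donor.

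Of 21 tested regulators, 7 (33.3%) were called higher and 4 (19%) lower at 1% O2, then 3 (14.3%) higher and 6 (28.6%) lower with 32-134D, to be read against the shares of all tested genes just given. Those called higher at 1% O2 were CEBPB (1.87 on the log2 scale), FOXA3 (1.44), NR5A2 (1.26), FOXA2 (1.24), KEAP1 (1.03), NFE2L2 (1.00) and RXRB (0.88), and all but NFE2L2 were the 6 called lower with 32-134D. Those called lower at 1% O2 were the nuclear receptors NR1H4 (-2.08 on the log2 scale), NR1I3 (-1.98) and RXRA (-1.18) and the hepatocyte factor CEBPA (-1.61). NR1H4, RXRA and CEBPA were the 3 called higher with 32-134D. In 32-134D replicate 3, however, NR1H4 (2.24 CPM) and CEBPA (111 CPM) lay below every vehicle library at 1% O2, where the lowest were 2.69 and 147 CPM. Replicates 1 and 2 were at 12.8 and 11.3 CPM for NR1H4 and at 364 and 347 CPM for CEBPA. HNF4A (-0.11 and 0.03) and AHR (-0.03 and 0.04) were not called, and NR1I2, the main inducer of CYP3A genes, had too few counts to test. Of 35 tested drug-metabolising enzymes of other families, 12 (34.3%) were called lower and 1 (2.86%) higher at 1% O2, where 20.3% and 19.5% of all tested genes were. With 32-134D 9 (25.7%) were called higher and 0 lower, where 16.2% and 13.7% of all tested genes were. Among them were MAOB (-1.30 and 1.28), EPHX2 (-1.95 and 1.26) and ADH4 (-3.04 and 2.41), and ALDH3A2 was the 1 called higher at 1% O2 (0.63). Of the 6 tested markers of other cell types 5 (83.3%) were called lower at 1% O2, against 20.3% of all tested genes. With 32-134D 5 (83.3%) were called higher, against 16.2% of all tested genes. The listed markers summed to 37.2 to 41.9, 16.0 to 16.4 and 32.4 to 34.9 CPM in the 3 groups, with PTPRC untested and VWF at 0. The part of these markers in the member values was not tested.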

How the data were processed

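RNA-seq was performed on 9 cultures of Hep3B cells, 3 per group, grouped by the sample labels. Raw gene-level counts deposited by the authors were used, which came from trimming with Bbduk, mapping to GRCh38 with STAR and counting with featureCounts. Versions, strand and multi-mapping settings are not given in the sources used here. Exons of some members, among them SULT1E1, SULT1A1 and CYP26A1, overlap those of another gene on the same strand, so reads could be dropped there. Replicates differed by more than counting error (chi-square per degree of freedom 1.62 to 36.4), so each counted once. Member and gene lists were chosen with earlier results of these data known.

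All 9 libraries entered 1 quasi-likelihood fit in edgeR 4.0.16 (R 4.3.3) after TMM scaling, over the 22672 genes whose counts summed to 10 or more. Calls needed FDR below 0.05 and a fold above 1.5. TPM used exon lengths of GENCODE 29 (GRCh38), which held all 62 tested members and 22265 of the tested genes. Positions come from it, although the counts use a later Ensembl release. Total counts of 6013980 to 40549699 made 1 count worth 0.0247 to 0.166 CPM before scaling. The script was tested on simulated counts. Members were described in depth by a rule: for each class and for both comparisons with vehicle at 1% O2, up to 4 called members per direction with the largest change and a mean normalized count of at least 50, and the 3 with the highest level per length. This gave 24 members, and others named in the text were chosen after their values were seen. Alternatives were DESeq2 1.42.0, other scalings, filters and thresholds, fits of 2 groups, thinning, a replicate block and leaving out libraries, of which leaving out libraries of the third group, or 2 libraries together, was chosen after seeing the data. The values of 2 genes are not reported here.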

Additional observations from a re-analysis of the deposited data

How the results depend on the processing

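With the 9 libraries, 4 and 31 members were called higher and lower at 1% O2, 20 and 3 with 32-134D, and 0 and 0 between 32-134D and vehicle at 20% O2. Leaving out 1 library at a time gave 3 to 5 and 27 to 32 at 1% O2, 15 to 26 and 2 to 3 with 32-134D, and 0 to 1 and 0 to 2 against 20% O2. Thinning to the smallest library gave 2 higher at 1% O2, without CYP26A1 and GSTZ1, and 1 lower with 32-134D. Without a fold threshold 6 were lower with 32-134D and 3 lower against 20% O2. Against 20% O2, DESeq2 called 1 higher, no filter on low counts called 2 higher and 4 lower, leaving out 32-134D replicate 1 or 2 called 1 higher (UGT1A1), and leaving out replicate 2 called 2 lower. The cause was not tested. Scaling by total library size shifted the median of all genes by -0.21 (log2) at 1% O2 and 0.17 with 32-134D, and gave log2 fold changes at 1% O2 of -0.0823 for CYP27A1 and -0.0543 for GSTM3. GSTM3 was at -0.0235 after thinning. UGT1A1, with no difference at 1% O2, changed sign to 0.0219 without a filter, 0.29 with the replicate block, 0.18 after thinning, 0.00999 without the 2 libraries that stand apart in depth or member levels (vehicle at 20% O2 replicate 2 and 32-134D replicate 3), and 0.00324 to 0.0934 in 3 of the 9 fits without 1 library, which ranged from -0.212 to 0.0934. Against 20% O2, GSTO2 was at 0.0164 without those 2 libraries, and GSTZ1, at 0.04 in the full set, ranged from -0.0379 to 0.199 when 1 library was left out. Same-numbered replicates did not deviate together (correlation -0.18 to 0.08), so the numbers were not taken to pair the samples, and the fit with a replicate block called 4 and 29 members at 1% O2, 19 and 3 with 32-134D and 0 and 0 against 20% O2. A tally covered the log2 fold changes of the members named by the rule and of other members called in the comparison. In it 1583 alternatives kept direction and side of the threshold, 66 fell below it, 34 passed it and 13 changed sign. Low counts limit members such as CYP2C8 and UGT2B17, with at most 8 and 11 counts in a library.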
